A study of Drosophila melanogaster with 3 samples.

Results

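The Enhancer of split complex of Drosophila melanogaster is a cluster of small genes on chromosome arm 3R, and 10 of its genes, of 13945 protein-coding genes in all, are described here for binding of the transcription factor Sp1. The 10 were taken by name: the bHLH genes E(spl)mdelta-HLH, E(spl)mgamma-HLH, E(spl)mbeta-HLH, E(spl)m3-HLH, E(spl)m5-HLH, E(spl)m7-HLH and E(spl)m8-HLH, and the Bearded family genes E(spl)malpha-BFM, E(spl)m2-BFM and E(spl)m4-BFM. Every ChIP-seq summit inside one of these genes or within 3 kb of it was counted and given to its nearest transcription start site (TSS). A summit is the base of highest signal in a peak.

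The study is a ChIP-seq of Sp1-GFP, in which a stably inserted transgene makes Sp1, a zinc finger protein of the Sp/KLF family, with GFP at its C terminus, and an antibody to GFP recovered the bound, sonicated DNA. There was 1 group of 3 biological replicates, all of that line: whole larvae in the wandering phase of the third instar, male and female pooled, of unknown age. The labels do not say whether the larvae also carried untagged Sp1. The lists analysed were 1 per replicate and 1 of the pooled replicates, each of 30000 peaks, and the authors' optimal set of reproducible peaks, which are the strongest of the pooled list. All heights below are the authors' peak signal, whose scale is not stated. Read depth is not known from these lists, and the 3 replicates of 1 line measure the spread between samples of that line only. In whole larvae, binding in fewer cells and weaker binding in each cell cannot be told apart.

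Notch signalling lets a cell stop its neighbours from taking its own fate, and in insects the genes of this complex are its best known targets. When Notch is activated by its ligands, its intracellular part joins the DNA-binding protein Su(H) and switches these genes on. The bHLH members encode repressors that bind E-box and related words in DNA, recruit the corepressor Groucho and shut down proneural genes. The Bearded family members encode small proteins that bind the ubiquitin ligase Neuralized and hold back signalling by the ligand Delta. In larvae the genes are known for selecting sensory organ precursors in the imaginal discs and for work in neuroblasts and muscle precursors.

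The DNA under the strongest summits of 5 members is shown first, because these are among the strongest sites of the complex. Each line runs from 100 bp before to 100 bp after the pooled summit, in dm6 (Release 6 of the genome), 5' to 3' on the strand of the member, with its offset from that member's TSS. Capitals mark TATAAA, the word of a TATA box, CANNTG, the E-box that bHLH proteins bind, and GTGNGAA, a loose form of the core of the Su(H) site. They also mark GGGCGG and GGGNGGG, words of the kind that Sp/KLF proteins bind. N stands for any base, so a match to GTGNGAA need not be a Su(H) site. All words were searched on both strands.
E(spl)mdelta-HLH summit at -337 bp, chr3R:25997184-25997384, + strand: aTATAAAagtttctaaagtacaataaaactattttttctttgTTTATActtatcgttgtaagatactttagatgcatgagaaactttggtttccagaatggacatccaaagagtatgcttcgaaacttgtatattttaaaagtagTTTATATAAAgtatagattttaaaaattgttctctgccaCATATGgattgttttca
E(spl)malpha-BFM summit at -1786 bp, chr3R:26009007-26009207, + strand: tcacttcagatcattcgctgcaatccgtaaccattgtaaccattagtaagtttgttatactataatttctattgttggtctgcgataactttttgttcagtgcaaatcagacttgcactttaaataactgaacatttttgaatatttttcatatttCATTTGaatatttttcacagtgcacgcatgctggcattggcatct
E(spl)m2-BFM summit at -520 bp, chr3R:26017890-26018090, - strand: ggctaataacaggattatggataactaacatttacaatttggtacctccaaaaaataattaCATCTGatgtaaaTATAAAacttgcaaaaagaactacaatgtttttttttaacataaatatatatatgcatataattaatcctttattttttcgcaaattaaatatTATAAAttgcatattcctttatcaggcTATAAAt
E(spl)m3-HLH summit at -427 bp, chr3R:26021296-26021496, + strand: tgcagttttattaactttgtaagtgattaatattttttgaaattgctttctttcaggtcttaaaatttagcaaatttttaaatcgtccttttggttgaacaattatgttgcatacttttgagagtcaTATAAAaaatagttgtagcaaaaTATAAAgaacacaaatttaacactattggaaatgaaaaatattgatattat
E(spl)m7-HLH summit at -381 bp, chr3R:26036557-26036757, + strand: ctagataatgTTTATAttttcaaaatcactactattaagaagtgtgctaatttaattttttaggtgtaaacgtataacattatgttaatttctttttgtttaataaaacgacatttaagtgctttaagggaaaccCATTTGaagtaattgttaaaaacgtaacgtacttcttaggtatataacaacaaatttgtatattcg

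The G+C content of these 5 windows was 25.9% at E(spl)mdelta-HLH, 32.8% at E(spl)malpha-BFM, 21.9% at E(spl)m2-BFM, 22.9% at E(spl)m3-HLH and 24.4% at E(spl)m7-HLH. The median was 35.8% over all optimal peaks and 32.1% over those with a signal above 1000, so E(spl)malpha-BFM was not unusual. The other sites above 1000, at E(spl)mdelta-HLH -1039 bp and in gro, are not shown and had 33.8% and 41.8%. None of the 5 windows shown held GGGCGG or GGGNGGG. The E(spl)m2-BFM window overlaps an exon of lncRNA:CR43643, and the other 4 lie between genes. For contrast, the weaker summits nearest to the TSSs of E(spl)mbeta-HLH and E(spl)malpha-BFM lie in sequence of 56.2% and 55.2% G+C. The second of these is cut short just before the TSS, and the TATAAA in it starts 2 bp past the summit, at the place of a TATA box.
E(spl)mbeta-HLH summit at -344 bp, chr3R:26006267-26006467, - strand: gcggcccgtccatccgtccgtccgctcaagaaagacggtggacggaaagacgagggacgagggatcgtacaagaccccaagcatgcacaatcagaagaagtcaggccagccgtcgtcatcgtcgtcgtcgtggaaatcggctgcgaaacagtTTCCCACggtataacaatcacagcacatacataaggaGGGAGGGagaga
E(spl)malpha-BFM summit at -35 bp, chr3R:26010758-26010892, + strand: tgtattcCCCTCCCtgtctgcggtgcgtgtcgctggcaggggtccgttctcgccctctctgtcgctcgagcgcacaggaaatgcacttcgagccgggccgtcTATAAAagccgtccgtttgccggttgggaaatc

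Sp1-GFP summits were dense at the complex on average, but not evenly along it. No optimal summit lay between positions 26021597 and 26036657, the stretch that holds E(spl)m4-BFM, E(spl)m5-HLH and E(spl)m6-BFM. In the optimal set, 17 summits lay in or within 3 kb of a member, on 48.1 kb of sequence. That is 3.54 optimal summits per 10 kb at the members, against 0.598 per 10 kb over the 6 chromosome arms. The same region held 18, 19 and 13 summits when the strongest peaks of replicates 1, 2 and 3 were taken, as many of each as the optimal set holds. A window of 49.4 kb, the span of the complex with 3 kb on either side, held a median of 2 optimal summits over the 133586 windows laid along the arms in steps of 1 kb. Of these windows, 0.499% held 17 or more, and the fullest held 31.

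The 17 sites lay in 12 peak intervals, 5 of which held a pair of summits, at most 790 bp apart. Each list's closest summits were 199 bp apart, so summits nearer than that do not occur in these lists. Counting 1 summit per interval gave 12. Relative to their nearest TSS, 15 of the 17 summits were upstream, and 13 lay outside annotated genes. Such shares over all optimal summits were not counted, so these counts cannot set the complex apart. Copies elsewhere in the genome were looked for with 204 stretches of 36 bp from the 17 windows, and none of these occurred a second time on the arms.

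**Figure D1:**
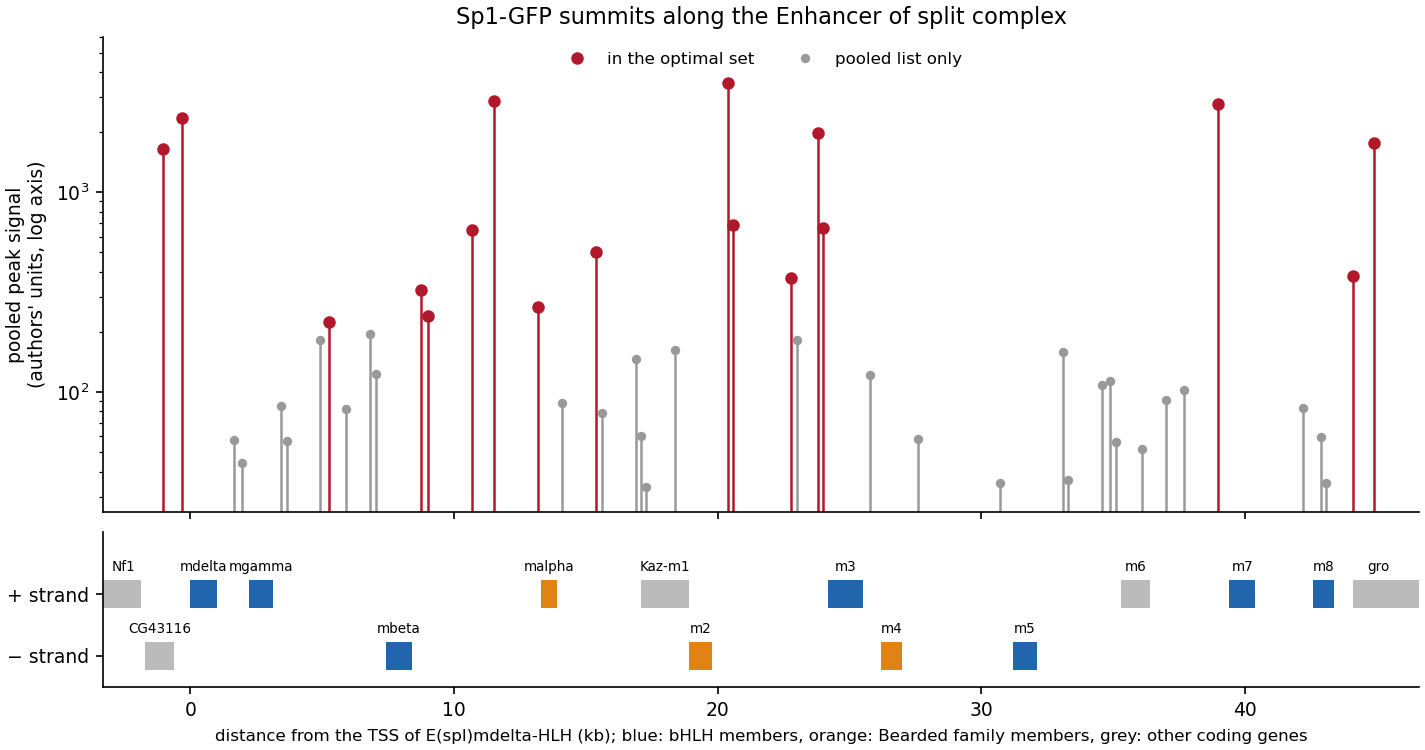
Pooled peak signal (log axis, authors' units) of every pooled summit along the complex against distance from the TSS of E(spl)mdelta-HLH in kb. Red marks the 17 optimal summits and grey the pooled summits below the optimal set, and coding genes are drawn to scale below on the strand of their transcription, and Nf1 and gro run past the edges. The 7 summits above a signal of 1000 stand at E(spl)mdelta-HLH, upstream of E(spl)malpha-BFM, E(spl)m2-BFM, E(spl)m3-HLH and E(spl)m7-HLH, and in gro, and no red summit stands near E(spl)m5-HLH.

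The sites at the complex were also strong. Their median pooled signal was 660, against 415 over all optimal peaks, and 7 of 17 (41.2%) had a signal above 1000, as had 1328 of all optimal peaks (16.6%). The limit of 1000 was chosen after the values were seen. By signal these 7 ranked between 122 and 614 in the optimal set. They kept high ranks in each replicate, the lowest being 808, 962 and 525 of 30000 in replicates 1, 2 and 3. Their summits in the replicates were 18 to 54 bp apart. Of the 17 sites, 11 had a summit within 100 bp among the strongest peaks of all 3 replicates, as had 52.0% of all optimal peaks. All 17 had one in at least 2 replicates. That share was not counted over all optimal peaks, which were themselves chosen as reproducible.

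The members differed in whether they had a summit near their start. An optimal summit lay within 500 bp of the TSS, here called the promoter, in 5 of the 10 members, against 27.8% of all protein-coding genes. With a replicate left out, only summits among the strongest peaks of both remaining replicates were counted, a stricter rule. Counted so, it was 3 members without replicate 1, 3 without replicate 2 and 5 without replicate 3. The promoter summits of E(spl)mbeta-HLH and E(spl)malpha-BFM had no match among the strongest peaks of replicate 3. Within 200 bp of the TSS the count was 1. Within 1000 bp it was 6 of 10 members, against 31.2%. In or within 3 kb of the gene, 9 of 10 members had an optimal summit, against 47.8% of all genes, but neighbours a few kb apart share summits at that distance. When each summit was given to its nearest TSS alone, 6 of 10 members had at least 1, against 26.7% of all genes, and 4 of 10 had at least 2, against 9.21%. Of the 17 summits, 12 were nearest to the TSS of a member, 2 to CG43116, 2 to gro and 1 to Kaz-m1.

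Among the bHLH repressor genes, E(spl)m7-HLH (FBgn0002633, 3R, 26037038 to 26038019, plus strand) had the highest promoter summit. Its peak (26036345 to 26037123) had a signal of 985, 1095 and 697 in replicates 1, 2 and 3, a mean of 925 ± 205 (SD, n = 3), and 2768 in the pooled list at rank 223. The 3 values all lie far above the 3 replicate lists' medians of 41.6, 47.0 and 36.9. The summit lies upstream, at -381 bp from the TSS, and no other optimal summit lies within 3 kb of the gene.

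E(spl)mdelta-HLH (FBgn0002734, 25997621 to 25998633, plus strand) stands at the left end of the complex. Its promoter summit, at -337 bp in the peak at 25996914 to 25997540, had a signal of 764, 812 and 825, a mean of 800 ± 31.9 (SD, n = 3) and a coefficient of variation of 3.99%. The replicates nearly coincided there. This summit is at -288 bp from the TSS of CG43116, which is transcribed away from E(spl)mdelta-HLH, so by nearest TSS it goes to CG43116 and E(spl)mdelta-HLH is left with none. A further summit, at -1039 bp and in an intron of CG43116, had 655, 463 and 631 (583 ± 105, SD, n = 3).

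E(spl)m3-HLH (FBgn0002609, 26021823 to 26023127, plus strand) had 3 summits, all upstream. The strongest, at -427 bp in the peak at 26020829 to 26021749, had a signal of 612, 628 and 764 (668 ± 83.5, SD, n = 3). The replicates differed more at a summit of the same peak nearer to the gene, at -226 bp, with 305, 56.8 and 263 (208 ± 133, SD, n = 3). There replicate 2 was low, and its summit was not among its strongest peaks. Its last summit, at -1449 bp, had 101, 93.3 and 185 (127 ± 51.1, SD, n = 3).

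E(spl)mbeta-HLH (FBgn0002733, 26005046 to 26006023, minus strand) had several modest summits in place of a strong one. At its promoter the highest summit had 149, 187 and 103 in the replicates (146 ± 42.0, SD, n = 3) and a pooled signal of 325 at -344 bp. In replicate 3 that summit was more than 100 bp from the pooled one. A summit at -595 bp had 89.8 and 143 in replicates 1 and 2 and no match in replicate 3, and one at -2294 bp had 194, 233 and 237 (222 ± 23.7, SD, n = 3).

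The remaining 3 bHLH genes had no optimal promoter summit. E(spl)m8-HLH (FBgn0000591, 26040240 to 26041008, plus strand), known from proneural clusters, had weak promoter peaks of 38.8, 61.1 and 34.6 (44.9 ± 14.3, SD, n = 3) and 83.5 in the pooled list, under the lowest optimal signal of 220. E(spl)mgamma-HLH (FBgn0002735, 25999851 to 26000761, plus strand), known from larval neuroblasts, had a promoter peak of 47.2 in replicate 2 and none in the others, with 44.1 in the pooled list. Downstream of it, at 3013 bp from its TSS, was an optimal summit with a pooled signal of 224 at rank 7894, with 111 and 107 in replicates 1 and 2 and none in replicate 3. E(spl)m5-HLH (FBgn0002631, 26028854 to 26029735, minus strand) was the 1 member with no optimal summit within 3 kb. Within 1000 bp of its TSS it had 42.8, 84.7 and 24.5 (50.7 ± 30.9, SD, n = 3) and 158 in the pooled list. In these lists an absent summit means only that no peak was among the 30000 listed.

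Among the Bearded family genes, E(spl)m2-BFM (FBgn0002592, 26016514 to 26017470, minus strand) had the highest summit of the whole complex. It lies upstream, at -520 bp, just beyond the promoter limit, in the peak at 26017356 to 26018504. Its signal was 1289, 1382 and 850 in replicates 1, 2 and 3 (1174 ± 284, SD, n = 3) and 3540 in the pooled list, at rank 122. Replicate 3 was the lowest of the 3. A second summit of the same peak, at -723 bp in an exon of lncRNA:CR43643, had 132, 370 and 44.1 (182 ± 169, SD, n = 3), the widest relative spread of the 14 sites matched in every replicate, and replicate 3 was again the lowest.

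E(spl)malpha-BFM (FBgn0002732, 26010893 to 26011568, plus strand) had a strong distal summit and a weak promoter summit. At -1786 bp, in the peak at 26007998 to 26009595 that also holds the -2294 bp summit of E(spl)mbeta-HLH, the signal was 929, 993 and 949 (957 ± 32.7, SD, n = 3). Its coefficient of variation of 3.42% was the smallest of the 7 strong sites, which ran up to 43.7% with a median of 18.0%. The promoter summit at -35 bp had 94.0, 152 and 59.6 (102 ± 46.5, SD, n = 3). E(spl)m4-BFM (FBgn0002629, 26023821 to 26024579, minus strand) had no optimal summit of its own: within 1000 bp of its TSS the replicates had 16.5, 45.6 and 20.1 (27.4 ± 15.9, SD, n = 3), and both optimal summits within 3 kb of it belong to E(spl)m3-HLH.

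**Figure D2:**
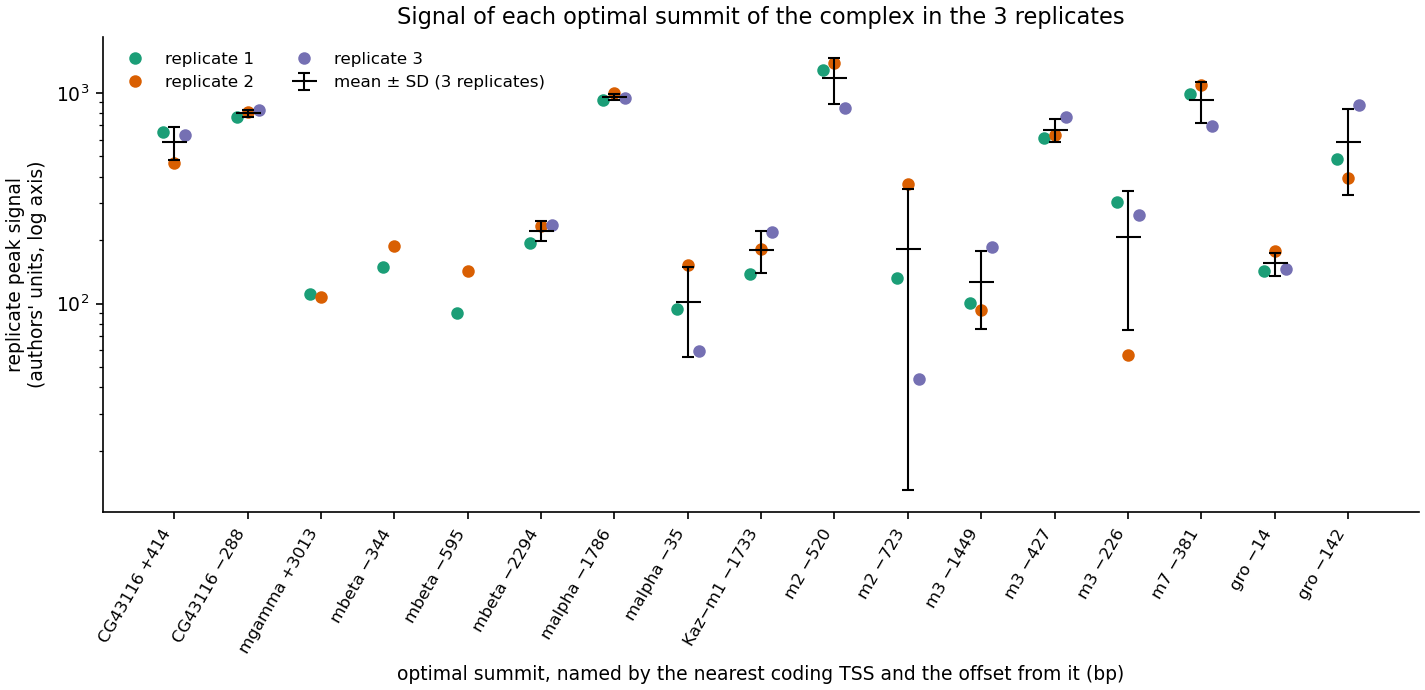
Replicate peak signal (log axis, authors' units) of the 17 optimal summits in order along the chromosome, each named by its nearest coding TSS and its offset in bp. Coloured points are the replicates' own peaks with a summit within 100 bp, and the black marks give the mean ± SD where all 3 replicates had one. At E(spl)m2-BFM -520 bp and E(spl)m7-HLH -381 bp replicate 3 is the lowest, at gro -142 bp it is the highest, and 3 sites have no point for replicate 3.

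Of the 3 genes of the complex outside the 10, 1 had an optimal promoter summit. The corepressor gene gro (26041736 to 26049911, plus strand), at the right end, had a summit of 484, 395 and 876 (585 ± 256, SD, n = 3; 1759 pooled) in an intron, at -142 bp from an internal TSS, and one of 142, 177 and 146 (155 ± 19.1, SD, n = 3) at -14 bp from the first TSS. Both lie within 3 kb of E(spl)m8-HLH, and they are the only optimal summits that do. E(spl)m6-BFM, of the Bearded family, had promoter peaks of 41.1, 57.7 and 25.1 and Kaz-m1, the Kazal-type protease inhibitor gene also called E(spl)m1, had 46.7, 48.3 and 53.7, all below the optimal set. An optimal summit at -1733 bp from the TSS of Kaz-m1, which is also 2095 bp downstream of that of E(spl)malpha-BFM, had 138, 182 and 219 (180 ± 40.7, SD, n = 3).

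Ordered by pooled promoter signal, the 6 members with a pooled promoter peak and one in every replicate ran E(spl)m7-HLH (2768), E(spl)mdelta-HLH (2349), E(spl)m3-HLH (1971), E(spl)mbeta-HLH (325), E(spl)malpha-BFM (266) and E(spl)m8-HLH (83.5). Neighbours in this order were compared by the log2 ratio of their signals within each replicate, by exact permutation of signs over the 3 replicates, two-sided, which cannot give a p below 0.25. The order itself comes from the pool of these same replicates, so agreement of a replicate with it is partly built in. The step from E(spl)m3-HLH down to E(spl)mbeta-HLH was the largest, with a mean log2 ratio of 2.23 ± 0.59 (SD, n = 3), in the same direction in 3 of 3 replicates (exact permutation p = 0.25, adjusted 0.312 over 5 pairs). E(spl)mdelta-HLH over E(spl)m3-HLH (0.27 ± 0.14), E(spl)mbeta-HLH over E(spl)malpha-BFM (0.58 ± 0.25) and E(spl)malpha-BFM over E(spl)m8-HLH (1.13 ± 0.30) also held in 3 of 3. E(spl)m7-HLH and E(spl)mdelta-HLH did not differ beyond their spread (0.19 ± 0.37): E(spl)m7-HLH was higher in replicates 1 and 2 and E(spl)mdelta-HLH in replicate 3.

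With the limit moved to 1000 bp, E(spl)m2-BFM stood above E(spl)m7-HLH in 3 of 3 replicates, by a log2 ratio of 0.34 ± 0.05 (SD, n = 3). E(spl)m5-HLH and E(spl)m8-HLH then followed each other with no difference beyond their spread (0.04 ± 0.49). Among the 7 strong sites the order was loose. Of 6 neighbouring pairs, 1 kept its order in all 3 replicates, that of E(spl)mdelta-HLH at -337 bp over E(spl)m3-HLH at -427 bp. The highest site was E(spl)m2-BFM at -520 bp in replicates 1 and 2 and E(spl)malpha-BFM at -1786 bp in replicate 3. Between the highest and the lowest of the 7 the ratio was 2.7, 3.5 and 1.5 in replicates 1, 2 and 3.

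The families could be compared at few promoters. Within 500 bp, the bHLH members with a summit in all 3 replicates had a median log2 promoter signal above that of the Bearded family by 2.70, 2.05 and 3.55 in the replicates (mean 2.76 ± 0.75, SD, n = 3; exact permutation p = 0.25, two-sided). This sets 5 bHLH genes against 1 Bearded family gene, E(spl)malpha-BFM, since the strongest site of the complex, at E(spl)m2-BFM, lies just outside the limit. Within 1000 bp the difference was 1.67. The Bearded family median there is still the value of E(spl)malpha-BFM, between those of E(spl)m4-BFM and E(spl)m2-BFM. The height of E(spl)m2-BFM therefore does not enter the difference. Within 500 bp the difference was 4.14 without replicate 2, where E(spl)m4-BFM joins the Bearded family genes with a value in each remaining replicate. Without replicate 3, where E(spl)m5-HLH joins the bHLH genes, the difference was 1.43.

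In 4 of the 5 members with a promoter summit, it lay farther upstream than in most genes. The highest promoter summit was at -337 bp in E(spl)mdelta-HLH, -344 bp in E(spl)mbeta-HLH, -427 bp in E(spl)m3-HLH, -381 bp in E(spl)m7-HLH and -35 bp in E(spl)malpha-BFM. Thus 4 of 5 lay 200 to 500 bp upstream, as did 26.2% of the 3873 genes with an optimal promoter summit, whose median offset was -111 bp. The E(spl)mdelta-HLH summit is nearer to the TSS of CG43116, at -288 bp from it. Members and all genes were counted here whichever TSS was nearest. The median signal of these highest summits was 1971 in the members and 484 in all such genes.

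**Figure D3:**
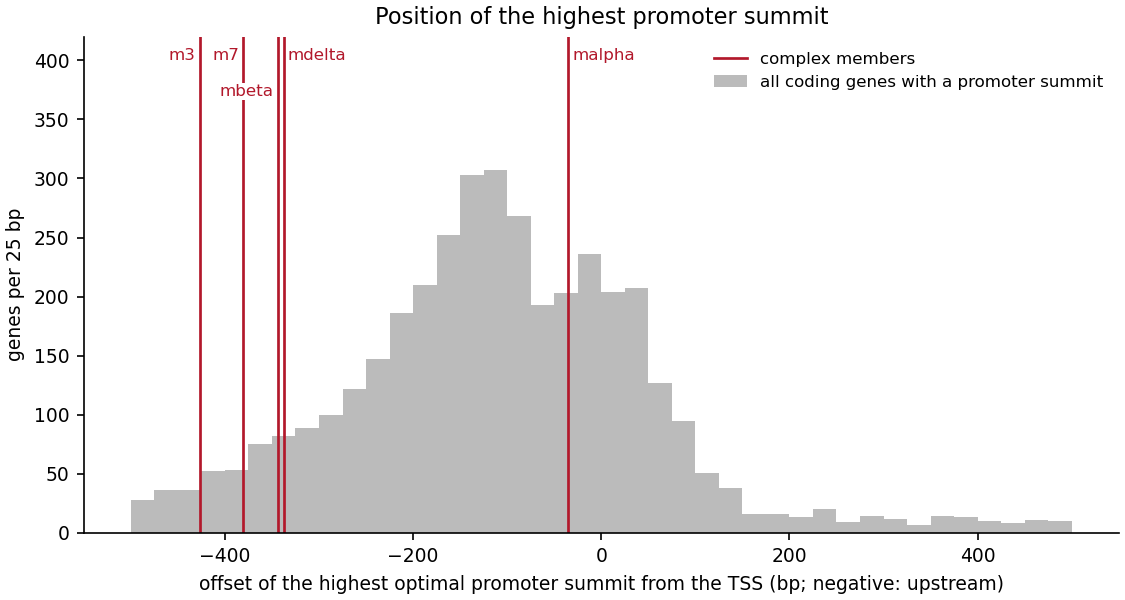
Histogram of the offset in bp of the highest optimal promoter summit from its TSS (negative is upstream) for all 3873 coding genes that have one, in genes per 25 bp, with red lines at the 5 members. The lines of E(spl)m3-HLH, E(spl)m7-HLH, E(spl)mbeta-HLH and E(spl)mdelta-HLH stand left of the bulk of genes, and that of E(spl)malpha-BFM, at -35 bp, within it.

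The strong and the weaker sites differed in base composition. Within 100 bp of the summit, the 7 strong sites had a median G+C content of 25.9% (21.9 to 41.8%) and the other 10 a median of 49.8% (23.9 to 57.7%), against 35.8% over all optimal peaks and 32.1% over all those above a signal of 1000. Under 30% G+C lay 4 of the 7 strong sites and 1 of the other 10, against 23.1% of all optimal peaks and 37.4% of those above 1000. Low G+C content was thus more frequent among strong peaks of the whole set too.

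**Figure D4:**
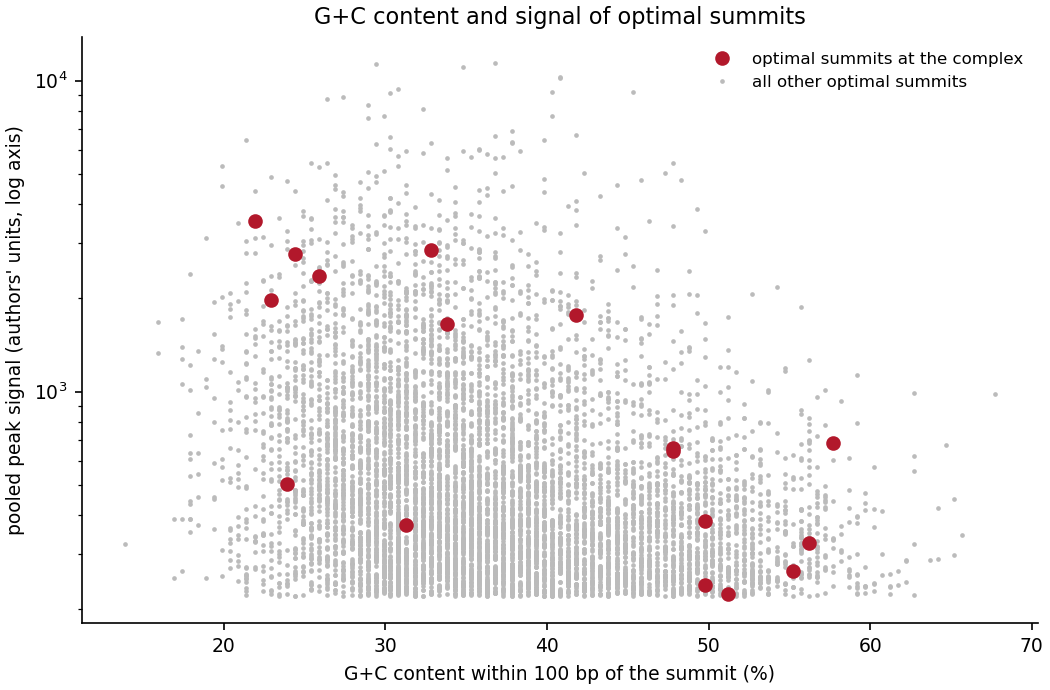
Pooled peak signal (log axis, authors' units) against G+C content in percent within 100 bp of the summit, for the 17 optimal summits at the complex (red) and all other optimal summits (grey). The 4 red points below 30% with a signal above 1000 are at E(spl)m2-BFM, E(spl)m3-HLH, E(spl)m7-HLH and E(spl)mdelta-HLH, and 6 red points lie at 49% or more, all below a signal of 1000.

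Composition also moved with the replicate. Of the 6 sites with at least 49% G+C, a limit chosen after the values were seen, 1 was among the strongest peaks of replicate 3, against 6 in replicate 1 and 6 in replicate 2. Of the 11 sites below the limit it was 11 in replicate 3, 11 in replicate 1 and 10 in replicate 2. The same held over the whole optimal set: of its 809 peaks with at least 49% G+C, 43.0% were among the strongest of replicate 3, against 84.2% in replicate 1 and 82.4% in replicate 2. Below the limit the shares were 79.7% in replicate 3, 82.0% in replicate 1 and 74.6% in replicate 2. The part of base composition in the low replicate 3 values at E(spl)mbeta-HLH, at E(spl)malpha-BFM -35 bp and at E(spl)m2-BFM -723 bp was not tested.

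Words that Sp/KLF proteins bind lay at few of these summits. GGGCGG lay within 100 bp of 1 of the 17 summits (5.88%), against 4.30% of all optimal summits, GGGTGTG in 0 against 1.76%, and GGGNGGG in 3 (17.6%) against 4.80%. GGGNGGG was found at E(spl)mbeta-HLH, at -344 and -2294 bp, and at E(spl)malpha-BFM at -35 bp. The 1 GGGCGG is part of the same letters as the GGGNGGG at -2294 bp, so these are not separate occurrences. GGGNGGG was at 0 of the 7 strong sites, against 2.56% of all peaks above 1000, so that 7 sites cannot show a difference. Within 50 bp of the summits the first and the last of these words lay in 0 of 17 windows, and within 250 bp each lay in 23.5%. At these widths the shares over all optimal summits were not counted. A word that is missing says only that these letters are not in the window.

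Words that bHLH proteins bind were counted next. The E-box CANNTG, which includes CACGTG, lay in 8 of 17 windows (47.1%) against 58.5% of all, and in 5 of the 7 strong sites, against 54.5% of all peaks above 1000. CACGTG and GCAGNTG lay in none, against 1.94% and 9.29%, and CACGNG and CACNAG, which can overlap each other, in 1 each, against 10.8% and 19.1%. Within 250 bp of the summits the E-box lay in 88.2% of the 17 windows, and the other 4 words of this kind in 11.8 to 35.3%. A wider window holds any word more often, and the shares over all optimal summits were not counted at that width. TATAAA lay in 8 windows (47.1%) against 34.1% of all optimal windows, and in 5 of 7 strong sites against 40.2% of all peaks above 1000. Of the other words, GAGAG lay in 5 windows (29.4% against 24.9%), TCAGTT in 2 (11.8% against 13.7%), CAGGTA in 1 (5.88% against 3.87%) and TATCGATA in 0 (against 2.77%).

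The Su(H)-type word set the upstream DNA of the members apart from that of most genes. In the 1000 bp upstream of the TSS, GTGNGAA occurred in 9 of 10 members, 26 times in all with a median of 3, against 39.0% of the 19607 coding TSSs and a median of 0. There were 3 or more in 6 of 10 members, against 1.51% of TSSs. E(spl)m3-HLH had none. Within 100 bp of the summits the word lay in 3 of 17 windows (17.6%, against 9.57% of all optimal windows) and at 0 of the 7 strong sites (against 8.58% of all peaks above 1000). The nearest such word was a median of 302 bp from the 17 summits, against 632 bp over all optimal summits, and 163 to 617 bp from the 7 strong ones.

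In 4 members the word occurred as a pair in opposite orientation with starts 24 bp apart, an arrangement known as Su(H) paired sites. The spacing was taken from these members after their positions were seen. Of all 19607 coding TSSs, 4 (0.0204%) had such a pair within 1000 bp upstream, and these were the 4 members. The pairs are shown with 10 bp on either side, in dm6 on the strand of the member and with the words in capitals, since they let the Sp1-GFP signal be read beside the best known binding sites of the complex.
E(spl)mgamma-HLH pair, chr3R:25999548-25999598, + strand: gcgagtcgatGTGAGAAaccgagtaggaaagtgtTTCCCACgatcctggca
E(spl)m4-BFM pair, chr3R:26024849-26024899, - strand: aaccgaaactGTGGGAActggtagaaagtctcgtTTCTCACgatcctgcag
E(spl)m7-HLH pair, chr3R:26036360-26036410, + strand: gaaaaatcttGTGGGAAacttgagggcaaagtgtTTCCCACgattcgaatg
E(spl)m8-HLH pair, chr3R:26040007-26040057, + strand: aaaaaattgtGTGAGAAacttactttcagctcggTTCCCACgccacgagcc

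Optimal Sp1-GFP summits lay off these pairs. Distances were taken from the middle of each pair. The nearest optimal summit was 2289 bp from the pair of E(spl)mgamma-HLH, 3277 bp from that of E(spl)m4-BFM, 272 bp from that of E(spl)m7-HLH and 1690 bp from that of E(spl)m8-HLH. In the pooled list, with its weaker peaks, the distances were 16, 365, 272 and 208 bp. The pooled summit 16 bp from the middle of the E(spl)mgamma-HLH pair is its weak promoter peak of 44.1. It lies inside the stretch shown, just past the second word. Of the 4 members with a pair, 1 had an optimal promoter summit, E(spl)m7-HLH, a share near the 27.8% of all genes.

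Genes with a promoter signal most like that of E(spl)m7-HLH over the 3 replicates, by Euclidean distance of log2 signal over each list's median among 4309 genes, were CG15771 (distance 0.18, signals of 1067, 1090 and 634) and Best2 (0.21, 1093, 1113 and 771).

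Promoter summits were also counted in the pathway around the complex and in the relatives of its genes. Of 23 Notch pathway genes, 11 (47.8%) had an optimal promoter summit, against 27.8% of all genes. The highest were numb, whose product holds Notch signalling down, with a signal of 1314 ± 137, gro with 585 ± 256 and aph-1, a subunit gene of the gamma-secretase that cleaves Notch, with 560 ± 18.6 (SD, n = 3 each). The ligand gene Delta and dx, which encodes a ubiquitin ligase acting on Notch, had none, with pooled promoter peaks of 206 and 182. In or within 3 kb of these genes, the highest optimal summits were 884 at Delta and 934 at dx.

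Of the 5 other hairy-related genes, which encode the closest kin of the bHLH members, 2 had one: hairy with 174, 307 and 179 (220 ± 75.4, SD, n = 3) and cwo, a clock repressor gene, with 122, 141 and 54.9 (106 ± 45.2, SD, n = 3). The neuroblast gene dpn and Hey had no optimal promoter summit. In or within 3 kb of the gene, dpn had an optimal summit of 973 and Hey had none. Of the 4 Bearded family genes outside the complex that the annotation holds under the listed names, 0 had one, with pooled promoter peaks of 82.2 at Brd, 172 at Tom and 207 at Ocho and none listed at BobA. Of 8 proneural genes and partners, 2 had one: emc, an inhibitor of bHLH proteins, with 271 ± 70.9, and da, the common partner of the proneural proteins, with 139 ± 39.7 (SD, n = 3 each). The proneural genes ac and amos had no optimal promoter summit. In or within 3 kb of the gene, ac had an optimal summit of 327 and amos had none.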

How the data were processed

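The 3 replicate lists of Sp1-GFP peaks from whole larvae were used with the pooled and the optimal list. Per the deposited text descriptions, each list was called on alignments against a control alignment, and the optimal set came from the replicate and pooled lists by the irreproducible discovery rate. The assembly is dm6, per the labels. For aligner and caller, names and versions were not given in the sources used here. As deposited, signal is the authors' height of each peak, and it was used unchanged. The deposited −log10 q value has a ceiling and was not used. The optimal set was checked to be the strongest of the pooled peaks, and the same number of each replicate's strongest peaks was taken.

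Gene models came from Ensembl 115 (BDGP6.54) and sequence from Release 6 of the genome by RefSeq. The 6 arms hold 13945 protein-coding genes with 19607 TSSs. A replicate's signal at a site was read from its highest summit no more than 100 bp away, and at a promoter from its highest summit there. Ratios were tested by exact sign-flip permutation with Benjamini-Hochberg adjustment (threshold 0.05), checked on simulated data. Shares of genes and windows are descriptions. Of the replicate lists, 0 peaks coincided in interval and summit, so each counted as a replicate.

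Members, lists and words were chosen with earlier results of these data known. Named genes were the 10 members, the other genes of the complex, the 3 genes of each list with the highest promoter signal and up to 2 without a summit, first by symbol, and the 3 genes most like the member with the highest promoter signal, of which 1 is not reported here. Alternatives changed distances, peak set, summary, window and replicates. Computations used scipy 1.17.1, pandas 2.3.3 and numpy 2.4.6 under Python 3.11.15, and figures matplotlib 3.10.9.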

Additional observations from a re-analysis of the deposited data

How the results depend on the processing

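Counts at the complex depended on the distance and the depth of the list. Optimal summits at the complex were 17 within 3 kb, 10 within 1 kb and 11 in a stricter optimal set of its stronger peaks only. With a replicate left out, only summits among the strongest peaks of both remaining replicates were counted, a rule the 17 did not have to meet. Counted so, there were 11 without replicate 1, 12 without replicate 2 and 16 without replicate 3. These falls therefore do not measure the weight of the replicate left out. Members with an optimal promoter summit were 5 within 500 bp, 1 within 200 bp and 3 in the stricter set. By the same rule for a replicate left out, they were 3 without replicate 1, 3 without replicate 2 and 5 without replicate 3. They were 6 within 550 bp, a limit added after seeing the data because E(spl)m2-BFM has its summit at -520 bp. The pairs of neighbours that kept their order in every replicate were 4 within 500 bp and 4 to 5 when a replicate was left out, and 0 within 200 bp, where E(spl)malpha-BFM alone has a pooled summit and no pair exists. The log2 difference between the families, whose p cannot pass 0.05 with 3 replicates, was 1.67 to 2.76 over distance, scale and summary. It was 1.43 to 4.14 when a replicate was left out. Scaling by each list's median cancels in this difference, so that setting had to return 2.76. Within 500 bp and within 1000 bp the Bearded family median rests on E(spl)malpha-BFM, so the steady sign is not a trait of the family. The distance of 200 bp gave no value for the difference. Members with a summit given to their TSS numbered 5 to 8. Shares of windows with a word moved with the window, as given with them. No paired analysis was possible because there is 1 group. Depth per library is not known, so how far it limits the weak peaks of E(spl)m5-HLH, E(spl)m8-HLH, E(spl)mgamma-HLH and E(spl)m4-BFM is not known either.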
